A study of Homo sapiens with 12 samples.

Results

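The APOBEC3 cytidine deaminases are 7 human genes, APOBEC3A, APOBEC3B, APOBEC3C, APOBEC3D, APOBEC3F, APOBEC3G and APOBEC3H, chosen here by symbol from the 39099 genes that the deposited transcripts could be summed to. RNA was measured in 12 libraries of AsPC-1 and PANC-1 (ASPC1 and PANC1 in the labels), both established human pancreatic cancer cell lines. The groups of each line are mock, TAp63 overexpression and deltaNp63 overexpression (deltaNP63 in the labels), where TAp63 has the long amino-terminal activation domain of the TP63 product and deltaNp63 lacks it. There are 6 groups of 2 libraries, labelled as biological replicates with no word on separate cultures, so p-values measure the spread between these libraries, which may be technical. Vector, time after delivery, selection and clonality are not given in the sources used here, and the controls carry no agent beyond the mock treatment as far as the labels say.

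APOBEC3 proteins are zinc-dependent enzymes that remove the amino group of cytosine in single-stranded DNA and turn it into uracil. They are part of the innate defence against retroviruses and mobile elements, and APOBEC3A and APOBEC3B are also studied as mutators of tumour genomes. APOBEC3A, APOBEC3C and APOBEC3H have a single zinc site, whereas APOBEC3B, APOBEC3D, APOBEC3F and APOBEC3G have a pair, of which the second is usually the catalytic one.

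The 7 genes lie side by side on the plus strand of chromosome 22 (hg38, GENCODE v44) over 151.3 kb. In order they are APOBEC3A (ENSG00000128383, chr22:38952741-38963184), APOBEC3B (ENSG00000179750, chr22:38982347-38992804), APOBEC3C (ENSG00000244509, chr22:39014257-39020352), APOBEC3D (ENSG00000243811, chr22:39021113-39033277), APOBEC3F (ENSG00000128394, chr22:39040604-39055972), APOBEC3G (ENSG00000239713, chr22:39077067-39087743) and APOBEC3H (ENSG00000100298, chr22:39097224-39104067). APOBEC3B overlaps the antisense gene APOBEC3B-AS1, listed between 0.860 and 2.51 TPM (a relative transcript abundance corrected for transcript length, in which every library has the same total). APOBEC3C and APOBEC3D both overlap ENSG00000284554 on the same strand, listed between 0 and 0.697 TPM.

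The coding bases of the zinc sites are printed for the members whose values the results turn on, because near-identical stretches bear on how reads can be assigned. Each stretch is a single exon of the plus strand, read from the GENCODE v44 coding sequence on hg38. Capitals mark the codons of the zinc-binding histidine, the catalytic glutamate, and the proline and pair of cysteines that close the site.
APOBEC3A, chr22:38961420-38961530: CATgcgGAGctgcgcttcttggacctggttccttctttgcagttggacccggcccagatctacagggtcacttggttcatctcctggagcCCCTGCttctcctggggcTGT
APOBEC3B second site, chr22:38991365-38991475: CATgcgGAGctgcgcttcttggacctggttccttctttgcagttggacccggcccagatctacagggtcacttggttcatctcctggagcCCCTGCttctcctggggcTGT
APOBEC3C, chr22:39017787-39017891: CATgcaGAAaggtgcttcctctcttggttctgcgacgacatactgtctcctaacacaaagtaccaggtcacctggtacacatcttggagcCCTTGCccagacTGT
APOBEC3F second site, chr22:39052095-39052199: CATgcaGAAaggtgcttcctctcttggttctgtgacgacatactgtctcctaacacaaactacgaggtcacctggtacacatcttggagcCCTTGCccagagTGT
APOBEC3G second site, chr22:39086312-39086416: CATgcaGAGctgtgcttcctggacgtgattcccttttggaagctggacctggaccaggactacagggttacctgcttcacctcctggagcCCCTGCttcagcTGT

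Among the zinc sites of all members, not all of which are printed, the APOBEC3A site and the second site of APOBEC3B were identical in all 111 bases. The first sites of APOBEC3B and APOBEC3F were identical in all 105 bases, as were the second sites of APOBEC3D and APOBEC3F. APOBEC3C matched the second sites of APOBEC3D and APOBEC3F in 101 of 105 bases (96.2%). The second site of APOBEC3G matched the APOBEC3A site in 77.5% of aligned bases. A read that lies wholly within bases that copies share cannot be assigned by its sequence, and how the authors divided such reads is not given in the sources used here.

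**Figure D1:**
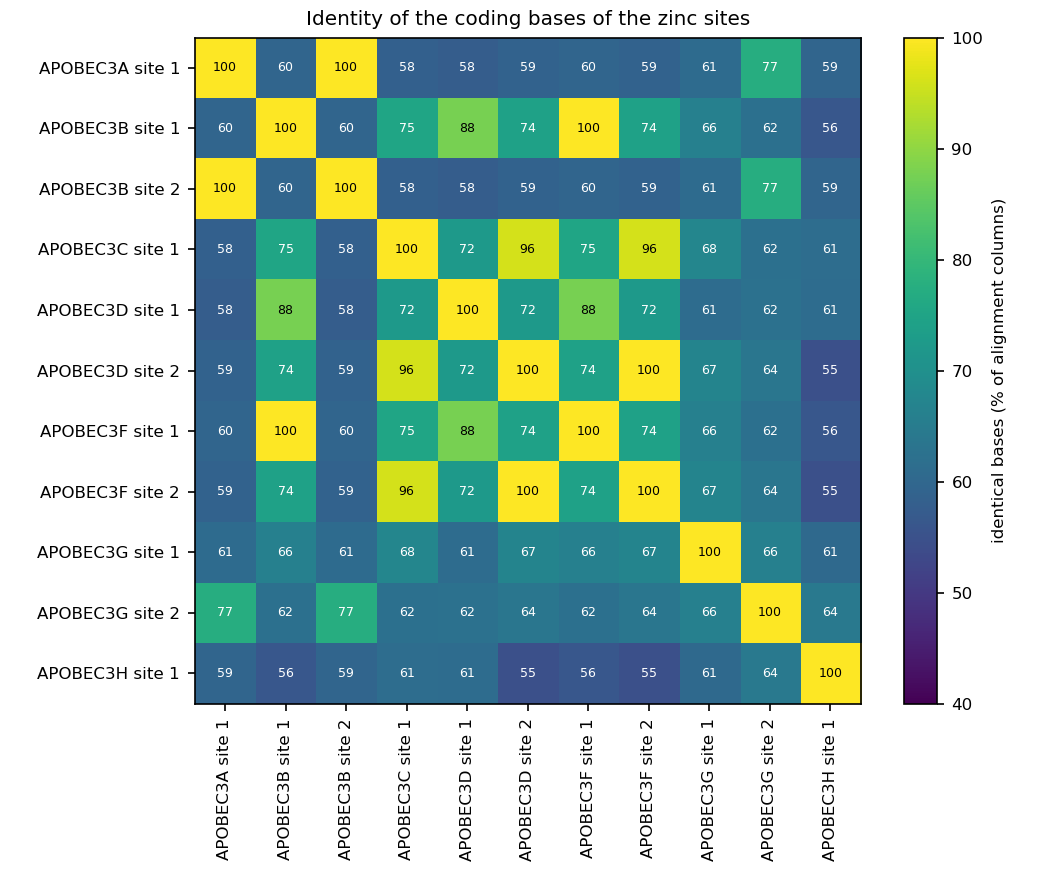
Identity of the coding bases of the 11 zinc sites of the 7 genes, as percent of alignment columns for every pair of sites (colour scale from 40% to 100%). The 3 pairs of different genes at 100% are the APOBEC3A site with the second APOBEC3B site, the first APOBEC3B and APOBEC3F sites, and the second APOBEC3D and APOBEC3F sites.

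Over whole transcripts, the shared part differed widely between members. Of all windows of 75 bases in the main coding transcript, 0.272% of those of APOBEC3C occurred in a transcript of another gene, 7.98% of those of APOBEC3F and 9.66% of those of APOBEC3G. The share was 21.1% for APOBEC3A, mostly with APOBEC3B, and 26.8% for APOBEC3B. For APOBEC3D it was 85.7%, mostly with ENSG00000284554, and 11.6% with other APOBEC3 genes alone. APOBEC3H shared no such window. The level of APOBEC3D is therefore uncertain against ENSG00000284554, and the level of APOBEC3A against the far more abundant APOBEC3B.

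As a check of the constructs, TP63 was listed in AsPC-1 at 0.958 ± 0.199 TPM in mock, at 136 ± 47.7 TPM under TAp63 and at 298 ± 74.4 TPM under deltaNp63 (mean ± SD, n = 2). In PANC-1, in the same order, it was 0.0719 ± 0.0670, 333 ± 13.0 and 1001 ± 263 TPM. All 6 epithelial markers reached 1 TPM in every library, with a summed level of 7142 to 10565 TPM in AsPC-1 and 3500 to 3869 TPM in PANC-1. The 14 leukocyte markers, from cells that carry high APOBEC3 levels, summed to 104 to 131 TPM in AsPC-1 and 2.36 to 4.18 TPM in PANC-1. Nearly all of the AsPC-1 sum was LYZ, the pan-leukocyte marker PTPRC stayed at or under 0.0102 TPM, and CD2 was listed at 0 in all 12 libraries. The 6 fibroblast markers summed to 178 to 289 TPM in AsPC-1, nearly all LUM, and 82.0 to 112 TPM in PANC-1, nearly all COL1A1, while endothelial markers summed to at most 0.312 TPM. Depth cannot be read from TPM, and 12212 to 13161 genes reached 1 TPM in a library.

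APOBEC3B was the most abundant member in every library of both lines. Its levels were 32.8 and 34.1 TPM in AsPC-1 mock, 28.8 and 32.1 TPM under TAp63, and 33.6 and 30.0 TPM under deltaNp63. In PANC-1 they were 35.9 and 32.9 TPM in mock, 34.9 and 35.2 TPM under TAp63, and 35.6 and 31.9 TPM under deltaNp63. The values of the lines overlapped. Since the other members differed, APOBEC3B made up 67.0% to 81.8% of the summed APOBEC3 level in AsPC-1 and 37.8% to 41.1% in PANC-1.

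APOBEC3C, a single-site member, ranked second in every library. It was listed at 12.2 and 11.7 TPM in AsPC-1 mock and at 30.5 and 30.6 TPM in PANC-1 mock. In AsPC-1 mock, APOBEC3F followed at 2.45 and 2.00 TPM and APOBEC3G at 0.620 and 1.44 TPM. In PANC-1 mock, APOBEC3G, best known for its action on HIV, ranked above APOBEC3F, with 12.5 and 12.2 TPM against 7.04 and 7.01 TPM. APOBEC3D, another antiviral member, was listed at 0.608 and 0.507 TPM in AsPC-1 mock and 2.85 and 3.26 TPM in PANC-1 mock. In AsPC-1 mock the values of APOBEC3D lay within the range of APOBEC3A, so the order of this pair could not be told from the replicates.

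APOBEC3A and APOBEC3H were near the bottom of the scale. APOBEC3A, a single-site enzyme otherwise typical of myeloid cells and keratinocytes, lay between 0.260 and 0.611 TPM in the 6 AsPC-1 libraries. In the 6 PANC-1 libraries it lay between 0 and 0.0613 TPM, with no overlap between the lines. APOBEC3H was listed at 0 in 5 of 6 AsPC-1 libraries, at 0.0455 TPM in the remaining one, and between 0 and 0.224 TPM in PANC-1. The sum of all 7 genes was 39.0 to 50.4 TPM in AsPC-1 and 84.3 to 88.9 TPM in PANC-1.

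**Figure D2:**
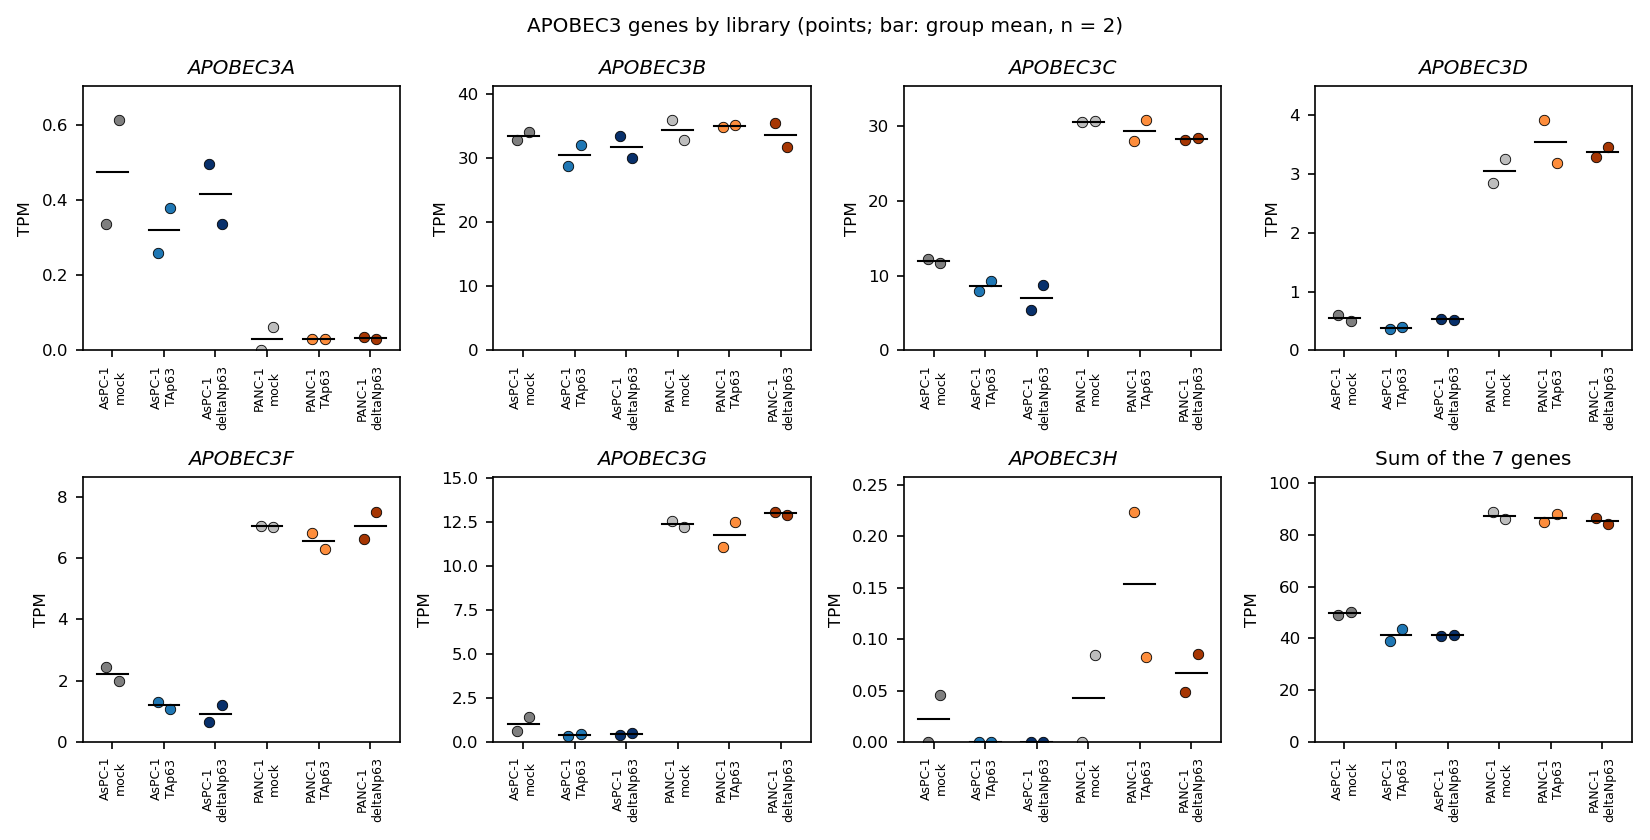
Level of each APOBEC3 gene and of their sum in TPM (vertical axes, each panel on its own scale from 0) in the 6 groups of cell line and construct. Points are libraries, bars are group means of 2 libraries. APOBEC3B sits between 28.8 and 35.9 TPM throughout, whereas APOBEC3C, APOBEC3D, APOBEC3F and APOBEC3G are higher in all 6 PANC-1 libraries than in any AsPC-1 library.

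Tests were run on log2(TPM + 1) with limma over the 14767 genes that reached 1 TPM in at least 2 libraries, with Benjamini-Hochberg adjustment over all of them and a threshold of 0.05. The pseudocount of 1 shrinks the fold changes of genes listed at a few TPM or less. APOBEC3B, APOBEC3C, APOBEC3D, APOBEC3F and APOBEC3G were tested, and APOBEC3A and APOBEC3H reached 1 TPM nowhere. APOBEC3D reached 1 TPM in PANC-1 libraries alone and APOBEC3G in those and 1 AsPC-1 mock library, so both entered the tests through the line where they are high. No count over the tested members is offered as support for the difference between the lines.

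Of the 5 tested members, 4 were higher in PANC-1 mock than in AsPC-1 mock, and 0 were lower. In this comparison 44.6% of all tested genes were higher and 27.9% lower, 72.5% in all. Since APOBEC3D and APOBEC3G entered the tests through PANC-1, where they are high, the count and the values of both are a description. APOBEC3G differed most, by 2.75 on the log2 scale (SE 0.176, limma adjusted p = 2.87e-07), or 12-fold by mean TPM. The AsPC-1 mock mean behind that ratio came from unlike values of 0.620 and 1.44 TPM. For the coding transcript APOBEC3G-201 alone, the mock means were 8.50 TPM in PANC-1 and 0.0871 TPM in AsPC-1. APOBEC3D was higher by 1.38 (SE 0.130, adjusted p = 5.25e-06, limma), or 5.48-fold by TPM. APOBEC3F was 1.32 higher (SE 0.158, limma adjusted p = 3.08e-05), 3.16-fold by TPM, and APOBEC3C 1.29 higher (SE 0.168, limma adjusted p = 5.89e-05), 2.56-fold.

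APOBEC3B did not pass this comparison. Its difference was 0.04 on the log2 scale, with a 95% interval from -0.19 to 0.26 (limma adjusted p = 0.743), which leaves out differences of the size seen for the other 4 members. APOBEC3A could be tested only with no filter on low values, over 27309 genes. It was then lower in PANC-1 mock (log2 fold change -0.51, SE 0.0936, limma adjusted p = 0.00241), at levels of 0.475 ± 0.194 TPM against values of 0 and 0.0613 TPM. Cell line is confounded here with every other difference between the cultures, and these cannot be told apart.

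In AsPC-1, APOBEC3F and APOBEC3C fell with deltaNp63. APOBEC3F, a double-site member, was listed at 2.45 and 2.00 TPM in mock and at 0.643 and 1.21 TPM with deltaNp63. APOBEC3C went from 12.2 and 11.7 TPM in mock to 5.40 and 8.70 TPM. The groups did not overlap for either gene, and deltaNp63 replicate 1 was the lowest of the AsPC-1 libraries for both. The log2 fold change was -0.76 for APOBEC3F (SE 0.158, limma adjusted p = 0.0322), a TPM mean lower by 2.41-fold. For APOBEC3C it was -0.71 (SE 0.168, limma adjusted p = 0.0409), a TPM mean lower by 1.69-fold.

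These 2 calls among 5 tested members stand beside 6.51% of all tested genes that fell in the comparison and 0.637% that rose (961 and 94 genes). The median change of the 5 members was -0.46, and that of all tested genes was -0.12. Both calls were lost without AsPC-1 mock replicate 1, without AsPC-1 mock replicate 2 and without deltaNp63 replicate 1. They were also lost with no filter on low values, with quantile normalization, with median centring and with only the 6 AsPC-1 libraries, each time with the direction kept. Median centring moved the median of all genes to 0.09 and the split of calls to 249 higher and 170 lower, quantile normalization gave 51 higher and 148 lower, and under these scalings the change was -0.55 and -0.62 for APOBEC3F and -0.51 and -0.48 for APOBEC3C.

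The other 3 tested members did not pass with deltaNp63 in AsPC-1. Of the 5, 3 did not overlap with mock and 3 had an unadjusted p under 0.05, beside 52.1% and 29.7% of all tested genes. APOBEC3G was listed at 0.396 and 0.505 TPM against 0.620 and 1.44 TPM in mock, without overlap (log2 fold change -0.46, limma adjusted p = 0.121). APOBEC3D values overlapped between the groups (-0.03, limma adjusted p = 0.943). APOBEC3B overlapped as well, with a change of -0.07 and a 95% interval from -0.30 to 0.15 (limma adjusted p = 0.689). A fall of APOBEC3B as large as the estimates for APOBEC3C and APOBEC3F lies outside that interval.

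With TAp63 in AsPC-1, 0 of the 5 tested members passed by limma, beside 0.637% of all tested genes (0.609% fell). All 5 members were lower in both TAp63 libraries than in either mock library, as were 35.4% of all tested genes (46.6% did not overlap in either direction). An unadjusted p under 0.05 was found for 3 of the 5, beside 15.1% of all tested genes. APOBEC3F was listed at 1.31 and 1.09 TPM with TAp63, and its log2 fold change was -0.55 (95% interval -0.90 to -0.20, limma adjusted p = 0.169). APOBEC3C was listed at 7.90 and 9.25 TPM (-0.44, 95% interval -0.81 to -0.06, limma adjusted p = 0.263). APOBEC3G was listed at 0.323 and 0.451 TPM (-0.52, limma adjusted p = 0.214).

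The remaining pair had smaller estimates. APOBEC3D was listed at 0.365 and 0.392 TPM (-0.18, limma adjusted p = 0.570) and APOBEC3B changed by -0.13 (95% interval -0.36 to 0.09, limma adjusted p = 0.582). The median of the 5 members was -0.44, beside -0.08 over all tested genes. Both AsPC-1 comparisons share the mock libraries, so their like order of members is not independent.

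The constructs were compared directly as well. In AsPC-1, 0 of 5 members differed between TAp63 and deltaNp63 by limma, beside 0.0203% of all tested genes, and 0 had an unadjusted p under 0.05, beside 7.92%. The difference was 0.28 for APOBEC3C (95% interval -0.10 to 0.65, limma adjusted p = 0.665) and 0.21 for APOBEC3F (95% interval -0.15 to 0.56, limma adjusted p = 0.715), with overlapping libraries for both. Without deltaNp63 replicate 2 the APOBEC3C difference rose to 0.58 and passed, and without deltaNp63 replicate 1 it was -0.023.

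In PANC-1, no tested member passed with either construct. Of the 5 tested members 0 passed by limma with TAp63, beside 0.00677% of all tested genes, and 0 with deltaNp63, beside 0.0406%. None had an unadjusted p under 0.05 in either comparison, beside 3.41% and 2.34% of all tested genes, and the estimates ran from -0.11 to 0.16. APOBEC3C was listed at 28 and 30.7 TPM under TAp63 and at 28.1 and 28.4 TPM under deltaNp63, against 30.5 and 30.6 TPM in mock. Its 95% interval was -0.43 to 0.32 with TAp63 and -0.49 to 0.27 with deltaNp63. APOBEC3F was listed at 6.81 and 6.27 TPM under TAp63 and at 6.61 and 7.50 TPM under deltaNp63, against 7.04 and 7.01 TPM in mock.

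APOBEC3G in PANC-1 was listed at 11.1 and 12.5 TPM with TAp63, 13.1 and 12.9 TPM with deltaNp63, and 12.5 and 12.2 TPM in mock. APOBEC3D was listed at 3.91 and 3.18 TPM with TAp63 and 3.29 and 3.46 TPM with deltaNp63. With deltaNp63, 3 of the 5 members did not overlap with mock, beside 27.1% of all tested genes: APOBEC3C lower, and APOBEC3D and APOBEC3G higher. With TAp63, 1 did not, APOBEC3F, which was lower, beside 42.4% of all tested genes. Between TAp63 and deltaNp63 in PANC-1, 0 of 5 members passed by limma, beside 0.0271% of all tested genes, and 0 had an unadjusted p under 0.05, beside 2.96%. The mean TP63 level under either construct was higher in PANC-1 than in AsPC-1, and its part in the results was not tested.

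**Figure D3:**
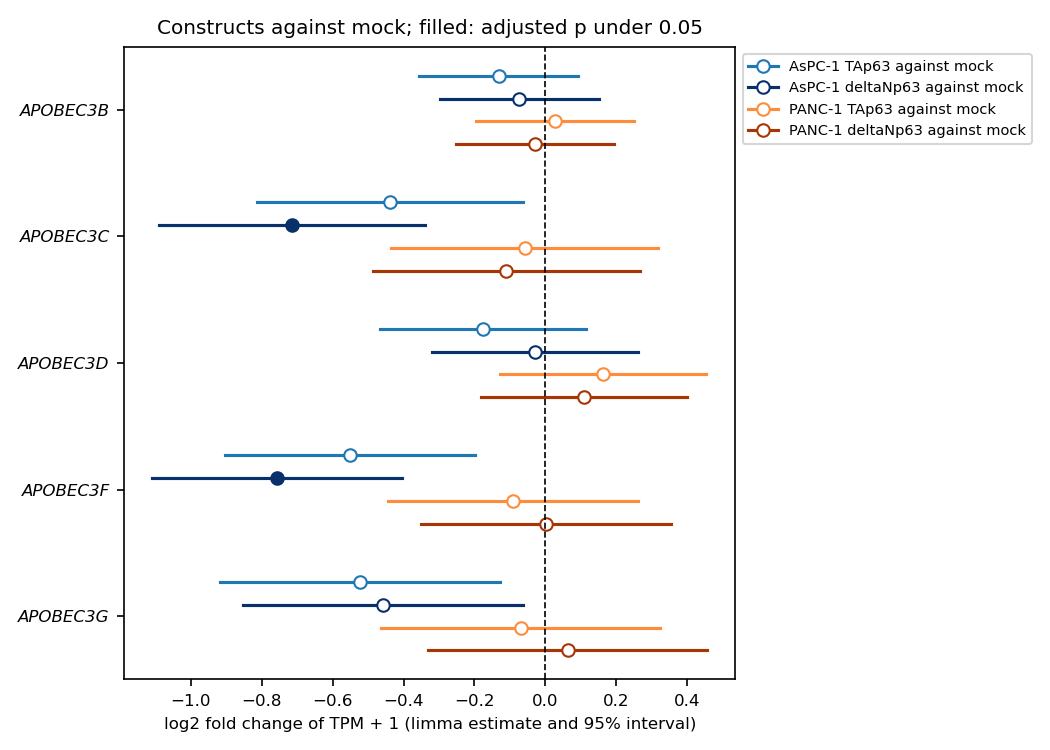
Log2 fold change of TPM + 1 against mock for the 5 tested APOBEC3 genes (horizontal axis), with 95% intervals from limma, for both constructs in both lines. Filled points have an adjusted p under 0.05: APOBEC3C at -0.71 and APOBEC3F at -0.76 with deltaNp63 in AsPC-1. Every PANC-1 interval includes 0.

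Whether the constructs acted differently in the lines was tested as the change in PANC-1 minus the change in AsPC-1. For deltaNp63, 0 of 5 members passed by limma, beside 0.582% of all tested genes, and 2 had an unadjusted p under 0.05, beside 16.5%. The difference was 0.76 for APOBEC3F (95% interval 0.26 to 1.26, limma adjusted p = 0.211) and 0.60 for APOBEC3C (95% interval 0.07 to 1.14, limma adjusted p = 0.262). Both passed without AsPC-1 deltaNp63 replicate 2, at 0.97 and 0.90. For TAp63, 0 of 5 members passed by limma, beside 0.0745% of all tested genes, and 0 had an unadjusted p under 0.05, beside 10.4%. Estimates for TAp63 ran from 0.16 for APOBEC3B to 0.46 for APOBEC3F. A fall of APOBEC3C and APOBEC3F in AsPC-1 alone was therefore not shown.

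At the transcript level, the APOBEC3G values of the lines were of different kinds. APOBEC3G-201, the only annotated coding transcript in the table, was listed at 7.14 to 9.36 TPM in PANC-1, 62.5% to 74.8% of the gene. In AsPC-1 it was listed at 0 to 0.132 TPM, and at 0 in both deltaNp63 libraries. The AsPC-1 mock replicate 2 value of 1.44 TPM came to 64.0% (0.924 TPM) from APOBEC3G-202, a transcript with no defined coding sequence that was listed at 0 in 4 of the 6 AsPC-1 libraries and in all of PANC-1. With coding transcripts alone, the TAp63 change of APOBEC3G in AsPC-1 was 0.041 in place of -0.52.

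Single transcripts were not tested, and their values are given as a description. For APOBEC3C, the coding transcript APOBEC3C-201 was listed at 7.29 and 6.83 TPM in AsPC-1 mock, 4.85 and 4.60 TPM under TAp63, and 2.81 and 4.53 TPM under deltaNp63. APOBEC3C-202, annotated as a target of nonsense-mediated decay, was listed at 4.89 and 4.87 TPM in mock, 3.05 and 4.65 TPM under TAp63, and 2.60 and 4.17 TPM under deltaNp63. It took 36.0% to 50.3% of the gene over the 12 libraries. Of the other members, APOBEC3B-201 held 73.8% to 86.0% of APOBEC3B, APOBEC3F-201 held 90.3% to 100% of APOBEC3F, and all of the APOBEC3A level was on APOBEC3A-201, all coding transcripts.

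**Figure D4:**
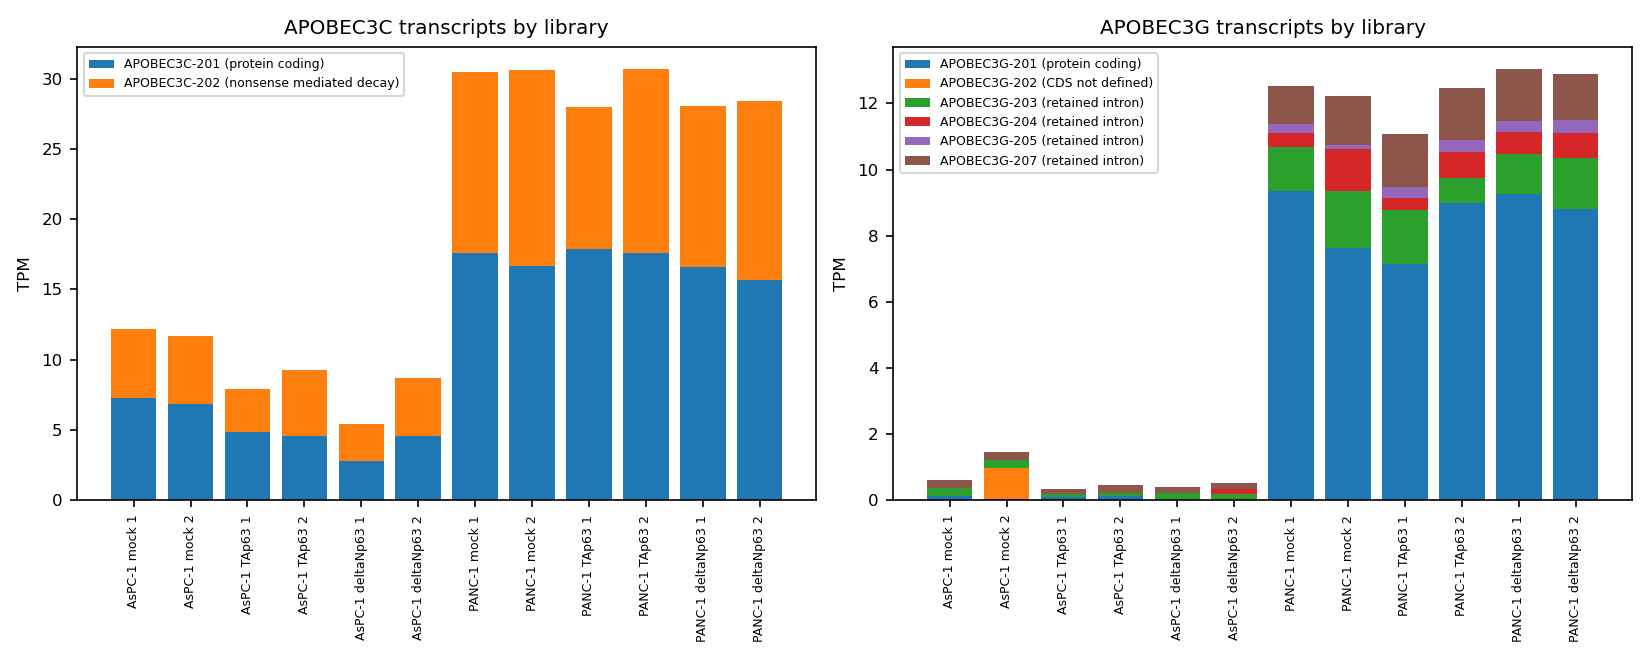
TPM of each listed transcript of APOBEC3C (left) and APOBEC3G (right), stacked by library, with the annotated type in the key. The coding APOBEC3G-201 holds 7.14 to 9.36 TPM in PANC-1 and at most 0.132 TPM in AsPC-1, where mock replicate 2 carries 0.924 TPM of APOBEC3G-202.

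APOBEC3C and APOBEC3F tracked each other across the AsPC-1 libraries but not across the PANC-1 libraries. Pearson's r of log2(TPM + 1) was 0.99 over 12 libraries, which mostly sets the lines apart, and 0.93 over the 6 AsPC-1 libraries against -0.21 over the 6 PANC-1 libraries. Libraries of a group are common to the points and the genes share some bases, so these are descriptions. The windows of 75 bases that APOBEC3C shares with APOBEC3F were 0.272% of its own, and their part in r was not tested. APOBEC3B went with APOBEC3C at r = 0.17 in AsPC-1 and 0.09 in PANC-1.

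Among 10218 other genes with a mean of at least 5 TPM, those most like APOBEC3C after subtracting the mean of each line were TCF19 (r = 0.98, over 12 libraries), FKBP4 and SLC11A2. For APOBEC3F they were MARVELD1 (r = 0.98), FAM111B and FABP5, and for APOBEC3G ZNF507 (r = 0.93), SNAPC2 and MSANTD4. For APOBEC3B they were CLN8-AS1 (r = 0.94), CUL9 and ARHGEF35-AS1, and for APOBEC3D ACTR5 (r = 0.84), CCDC25 and DENND5B. Without that subtraction, the genes most alike were TCF19 for APOBEC3C, MARVELD1 for APOBEC3F, ZNF507 for APOBEC3G and CATSPERG for APOBEC3D. Their r ran from 0.996 (CATSPERG) to 0.999 (MARVELD1), which mostly sets the lines apart. For APOBEC3B it was FLVCR1 with r = 0.88.

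The APOBEC3 genes belong to a wider set of host restriction factors, which block steps of viral replication. Of 16 others, 12 fell and 0 rose with deltaNp63 in AsPC-1, and 8 fell and 0 rose with TAp63. In these comparisons 6.51% and 0.609% of all tested genes fell. MX2, which blocks nuclear entry of HIV, went from 60.9 ± 10.1 TPM in mock to 16.6 ± 6.85 TPM under TAp63 and 9.06 ± 0.338 TPM under deltaNp63, with log2 fold changes of -1.86 and -2.61. RSAD2 (viperin) changed by -1.46 and -1.87, IFITM1, which hinders membrane fusion, by -1.37 and -1.86, and SAMHD1, which depletes dNTPs, by -1.32 and -1.76. The list medians were -0.71 with TAp63 and -0.92 with deltaNp63, beside -0.08 and -0.12 over all tested genes. In PANC-1, 0 of 16 passed with either construct by limma, beside 0.00677% of all tested genes with TAp63 and 0.0406% with deltaNp63. An unadjusted p under 0.05 was found for 0 of the 16 with either, beside 3.41% and 2.34% of all tested genes.

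The difference between the lines in the deltaNp63 change passed for 7 of the 16 restriction factors and for 0 of the 5 APOBEC3 genes, beside 0.582% of all tested genes. Leaving out single libraries gave 6 to 8 falls with TAp63 and 7 to 11 with deltaNp63, with 8, 7 and 8 without mock replicate 1, mock replicate 2 and deltaNp63 replicate 1. With only the 6 AsPC-1 libraries 0 passed in either comparison, where 1 of all tested genes passed with TAp63 and 8 with deltaNp63. Between the mock groups, 9 of the 16 were higher in PANC-1 and 2 lower, beside 44.6% and 27.9% of all tested genes, with SLFN11 (33.8 TPM against 0.0240 TPM in AsPC-1), TRIM22 and SAMHD1 among the higher ones. SLFN11 and GBP5 entered the tests through PANC-1, where they are higher, so these counts between the mock groups are a description.

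**Figure D5:**
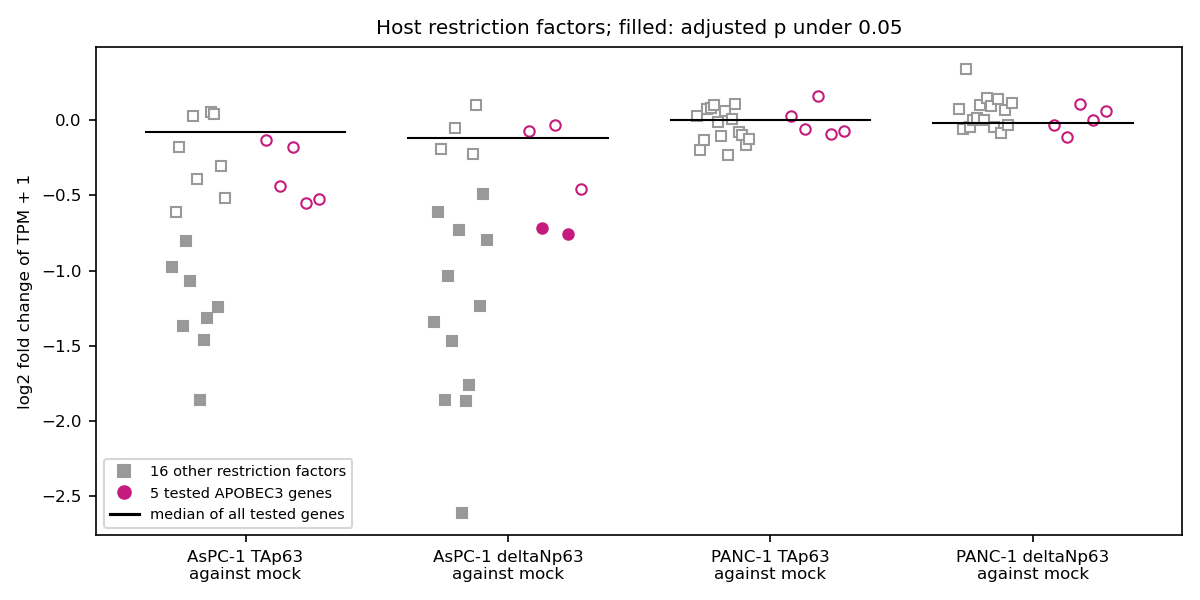
Log2 fold change of TPM + 1 against mock for the 16 other host restriction factors (grey squares) and the 5 tested APOBEC3 genes (magenta circles), with filled symbols for an adjusted p under 0.05 and a line at the median of all 14767 tested genes. With deltaNp63 in AsPC-1, 12 of 16 and 2 of 5 are filled and lie below 0, and none is filled in PANC-1.

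Interferon signalling induces several APOBEC3 genes, APOBEC3A, APOBEC3F and APOBEC3G among them. Of 12 genes of this route, 4 fell with deltaNp63 in AsPC-1 and 2 with TAp63, beside 6.51% and 0.609% of all tested genes, and 0 rose with either. STAT2, a transcription factor that acts downstream of the interferon receptors, went from 23.9 ± 1.02 TPM in mock to 13.1 ± 0.396 TPM under TAp63 and 12 ± 0.586 TPM under deltaNp63 (log2 fold changes -0.83 and -0.94). IRF1 and IRF7, interferon-regulated transcription factors, changed by -0.77 and -0.69 with deltaNp63. In PANC-1 0 of 12 passed with either construct by limma, beside 0.00677% of all tested genes with TAp63 and 0.0406% with deltaNp63. An unadjusted p under 0.05 was found for 1 with TAp63, beside 3.41% of all tested genes, and for 2 with deltaNp63, beside 2.34%. These estimates were rises, for IRF1 (0.26 with TAp63 and 0.30 with deltaNp63) and TYK2 (0.29 with deltaNp63). The difference between the lines in the deltaNp63 change passed for 3 of the 12, beside 0.582% of all tested genes. IRF1 (1.07) and STAT2 (0.94) were among them. Some of the 4 falls with deltaNp63 were lost without mock replicate 2 or deltaNp63 replicate 1. With only the 6 AsPC-1 libraries 0 passed with either construct, where 1 of all tested genes passed with TAp63 and 8 with deltaNp63.

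APOBEC3B has been linked in other cells to protein kinase C and non-canonical NF-kappaB signalling and to release from E2F and DREAM repression. Of 11 genes of the NF-kappaB and protein kinase C route, 0 passed by limma in any of the 4 comparisons with mock, and 0 had an unadjusted p under 0.05. The 2 genes of this route with the smallest p with TAp63 in AsPC-1 were RELB (-0.64, limma adjusted p = 0.508) and REL (0.18, limma adjusted p = 0.541). With deltaNp63 they were NFKBIA (-0.21, limma adjusted p = 0.181) and PRKCA (-0.30, limma adjusted p = 0.217). Of 13 genes of the E2F, DREAM and B-MYB route, 4 fell with deltaNp63 in AsPC-1, beside 6.51% of all tested genes. With TAp63 0 passed by limma, beside 0.637% of all tested genes, and 2 had an unadjusted p under 0.05, beside 15.1%. In PANC-1 0 passed with either construct, beside 0.00677% of all tested genes with TAp63 and 0.0406% with deltaNp63. There 0 had an unadjusted p under 0.05, beside 3.41% and 2.34%. The 4 that fell were TFDP1 (-0.84), RBL1 (-0.84), FOXM1 (-0.80) and E2F1 (-0.75). These 4 calls were lost without mock replicate 1, without mock replicate 2, without deltaNp63 replicate 1, with no low-value filter and with quantile normalization. They were also lost with median centring and with AsPC-1 alone. Over all tested genes, the 1055 calls became 199 with quantile normalization, 419 with median centring and 8 with AsPC-1 alone.

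Uracil left by APOBEC3 enzymes is removed by base excision repair or copied by translesion polymerases. Of 17 genes of uracil repair and lesion bypass, 4 fell with deltaNp63 in AsPC-1, beside 6.51% of all tested genes. With TAp63 0 passed by limma, beside 0.637% of all tested genes, and 4 had an unadjusted p under 0.05, beside 15.1%. In PANC-1 0 passed with either construct, beside 0.00677% of all tested genes with TAp63 and 0.0406% with deltaNp63. There 0 had an unadjusted p under 0.05, beside 3.41% and 2.34%. UNG, the main uracil glycosylase, went from 20.9 ± 1.75 to 10.7 ± 5.25 TPM (-0.98), and the mismatch repair gene MSH6 changed by -0.58. FEN1, a flap endonuclease, changed by -0.53. As for the E2F route, the 4 calls were lost under those same 7 settings, some of which also cut the calls over all tested genes. Between the mock groups 13 of the 17 were higher in PANC-1 and 2 lower, beside 44.6% and 27.9% of all tested genes.

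Other deaminases divided the lines in another way. APOBEC1, the RNA editor of apolipoprotein B, was listed at 4.16 ± 0.658 TPM in AsPC-1 mock and at 0 in all PANC-1 libraries, and its cofactors A1CF and RBM47 were lower in PANC-1 mock, with log2 differences of -4.37 and -4.86. CDA, which acts on free cytidine, was listed at 195 ± 24.4 and 0.853 ± 0.247 TPM. Of 11 genes on this list 7 were tested, with 2 higher and 4 lower in PANC-1 mock, beside 44.6% and 27.9% of all tested genes. The 4 lower ones, APOBEC1, A1CF, RBM47 and CDA, entered the tests through AsPC-1, where they are high, so that count is a description. In AsPC-1, ADAT2 fell with TAp63 (-0.74, limma adjusted p = 0.0460) and the double-stranded RNA editor ADAR fell with deltaNp63 (-0.90, limma adjusted p = 0.0126). The ADAT2 call was lost in 10 of its 12 other settings and the ADAR call without either mock library, without deltaNp63 replicate 1 and with AsPC-1 alone. APOBEC4 was listed at 0 in every group.

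Of the 9 protein-coding genes within 250 kb of the cluster, 1 fell with deltaNp63 in AsPC-1, beside 6.51% of all tested genes. With TAp63 0 passed by limma, beside 0.637% of all tested genes, and 1 had an unadjusted p under 0.05, beside 15.1%. In PANC-1 0 passed with either construct, beside 0.00677% of all tested genes with TAp63 and 0.0406% with deltaNp63. There 0 had an unadjusted p under 0.05, beside 3.41% and 2.34%. The gene that fell was CBX6, a Polycomb reader, at 10.2 ± 0.513 TPM in mock and 5.49 ± 0.945 TPM with deltaNp63 (-0.79, limma adjusted p = 0.0273). That call was lost without either mock library, without deltaNp63 replicate 1, with no low-value filter, with quantile normalization and with AsPC-1 alone. Over all tested genes, the 1055 calls became 199 with quantile normalization and 8 with AsPC-1 alone. Between the mock groups 4 of the 9 were higher in PANC-1 and 4 lower, beside 44.6% and 27.9% of all tested genes. NPTXR and SYNGR1, which entered the tests through PANC-1, were listed at 11.8 and 9.10 TPM in PANC-1 mock and at 0.248 and 0.0372 TPM in AsPC-1 mock.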

How the data were processed

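RNA from 12 libraries was prepared with a stranded poly(A) kit, per the labels' protocols. The authors deposited TPM values for 153329 Ensembl transcripts, each library summing to 1000000. The quantifier, its handling of reads shared between copies and its annotation are not given in the sources used here. GENCODE v44 paired 139819 transcripts (91.2%, 89.6% to 90.5% of TPM) with 39099 genes, over which TPM was summed. Depth is unknown, so precision rests on 2 replicates per group.

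One model with 6 group means was fitted to log2(TPM + 1) with limma 3.58.1 (trend) in R 4.3.3, on the 14767 genes that 2 or more libraries list at 1 TPM or more, leaving 6 residual degrees of freedom. Tests were two-sided, adjusted by Benjamini-Hochberg, and tried on simulated data. Sequences were compared with Biopython 1.88.

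The members and lists were chosen with earlier results of these data known. Named genes were the 7 members, TP63, up to 4 passing members of each list by size of change (otherwise the 2 of smallest p), and the 3 genes most alike by Pearson's r. LYZ, PTPRC, CD2, LUM and COL1A1 are marker genes named after their values were seen. Alternatives were a pseudocount of 0.1, no filter, quantile normalization, median centring, no trend, a replicate block, coding transcripts only, a single line only and leaving out each library. List counts under these were added after seeing the data. Values of some list members, counted in their lists, are not reported here.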

Additional observations from a re-analysis of the deposited data

How the results depend on the processing

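The count of 2 APOBEC3 genes past the threshold with deltaNp63 in AsPC-1 was 0 with no low-value filter, quantile normalization, median centring or only the 6 libraries of AsPC-1, and 0 to 2 when single libraries were left out; a pseudocount of 0.1, coding transcripts and no trend gave 2. APOBEC3C ran from -1.01 to -0.41 and APOBEC3F from -0.97 to -0.54 when libraries were left out. The counts of 0 for TAp63 against deltaNp63 in AsPC-1 and for the difference between the lines in the deltaNp63 effect became 0 to 1 and 0 to 2, both from leaving out AsPC-1 deltaNp63 replicate 2, which put APOBEC3C between constructs at 0.58. The count of 4 between the mock groups ran from 4 to 5, and the other counts of APOBEC3 genes did not move. APOBEC3C, APOBEC3D, APOBEC3F and APOBEC3G were higher in PANC-1 mock under every setting. With no low-value filter APOBEC3A passed as well, in the other direction (log2 fold change -0.51, limma adjusted p = 0.00241). Signs reversed for APOBEC3G with coding transcripts (0.041 for TAp63 in AsPC-1, -0.11 for the difference between the lines) and for APOBEC3C between constructs without AsPC-1 deltaNp63 replicate 1 (-0.023); the cause was not tested.

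Counts over all genes moved more. For deltaNp63 in AsPC-1, 1055 became 225 with no filter, 199 with quantile normalization, 419 with centring, 8 with AsPC-1 alone and 98 to 4057 without single libraries. For TAp63 in AsPC-1, 94 became 1 with AsPC-1 alone and 42 to 83 without single libraries. Between constructs in AsPC-1, 3 became 18 with no filter and 0 to 1025 without single libraries. The 86 for the deltaNp63 difference between the lines became 44 to 2196. In PANC-1, 1 gene with TAp63 and 6 with deltaNp63 became 49 and 42 with no filter.

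The replicate numbers share only a label. As a replicate block they gave 1633 genes for deltaNp63 in AsPC-1 (2 APOBEC3 genes), 84 for TAp63 (0) and 10408 between the mock groups (4). Deviations of same-numbered libraries correlated between -0.09 and 0.29.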
